A study of Mus musculus with 16 samples.

Results

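Ribosome biogenesis genes encode the proteins that transcribe, cut, modify and fold ribosomal RNA and join it to ribosomal proteins. Here 38 of them were followed in mouse quadriceps muscle, chosen by name for their step in the pathway, with earlier results of these data known. They were Myc, 5 genes of the RNA polymerase I machinery, 4 core proteins of small nucleolar ribonucleoproteins (snoRNPs), 4 abundant nucleolar proteins, 14 small-subunit assembly factors and 10 large-subunit assembly factors. The array held 49 probes whose RefSeq accession belonged to a member. Of the 38 members, 37 passed the filter on dim probes and stood among 21281 genes tested. The member that did not pass was Utp18, a small-subunit factor, whose probe was well above background on 0 of the 16 arrays.

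The mice were males aged 8 weeks, with 4 samples, each on its own array, in each of 4 groups. The groups were mFoxO1,3,4-/- mice fasted for 24 h, mFoxO1,3,4-/- mice fed at will, wild-type (WT) mice fasted for 24 h and WT mice fed at will. The mutant, labelled mFoxO-TKO, lacks FoxO1, FoxO3 and FoxO4 in muscle fibres, because the Cre recombinase that deletes them is driven by the human skeletal actin (HSA) promoter. Cells of the muscle other than fibres keep the 3 genes. FoxO proteins are transcription factors that insulin and growth factor signalling keeps out of the nucleus, and that are known in muscle for switching on protein breakdown during fasting. Whether the WT mice were litter mates or carried floxed alleles is not given in the sources used here.

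Making ribosomes is among the costliest tasks of a cell and is tied to nutrient supply. In the nucleolus, RNA polymerase I transcribes a long precursor RNA, snoRNPs guide its methylation and pseudouridylation, and assembly factors cut and fold it into the precursors of the small and the large subunit. MYC is a transcription factor known for switching on genes of all of these steps, and in muscle ribosome production is best known for its rise during growth.

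Each level below is the log2 of a probe's processed signal minus the 75th percentile of its array, so 0 is the signal that 75% of the probes of that array lie under. Levels of different probes are not set against each other. Per array, between 45% and 75.2% of spots were well above background and none was saturated. Between 0.143% and 3.28% were marked as uneven or as population outliers, together called uneven spots below, and were left out. The arrays lay on 2 slides, and slide 1 held replicates 1 and 2 of all 4 groups while slide 2 held the rest. Each group held 1 column of positions on both slides, so position and group cannot be told apart. All 10 skeletal muscle fibre markers passed the filter, and none had an adjusted p under 0.05 (limma) in either fasting comparison. Their differences ran from -0.28 to 0.15 in WT and from -0.01 to 0.32 in mFoxO-TKO mice. Foxo1 was lower in mFoxO-TKO than in WT muscle, by -3.40 ± 0.23 in fasted and -1.76 ± 0.23 in fed mice (log2, SE, with adjusted p = 3.38e-07 and 0.00117, limma). Both Foxo4 probes were well above background on all 8 WT arrays and on none of the 8 mFoxO-TKO arrays, whereas the Foxo3 probe did not pass the test (-0.75 ± 0.27 in fasted mice, adjusted p = 0.0976, and 0.74 ± 0.27 in fed mice, adjusted p = 0.299). In fed mice every mFoxO-TKO array read above every WT array for Foxo3, and the probe was dim, well above background on 3 of 4 arrays in each group but fasted WT. Whether the Foxo1 and Foxo3 probes lie in the deleted parts of those genes was not checked, since the probe sequences were not used here.

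In WT muscle, 24 h of fasting raised the transcript levels of Myc and of 13 further ribosome biogenesis genes, and lowered none past the test in this fit. The 14 higher members made up a larger share of the 37 tested than the 11.2% of all genes that were higher, and the 0 lower members stood against 9.57% of all genes. Since the members were chosen with earlier results of these data known, these shares describe the list and do not test the pathway. Differences were positive for 33 members and negative for 4, against 51.7% positive among all genes. The median difference of the members was 0.50, against 0.02 for all genes tested. For 22 members every fasted array lay above every fed array, and for 1 member every fasted array lay below, against 15.2% and 13% of all genes. The call rule throughout is an adjusted p under 0.05 in limma, with Benjamini-Hochberg adjustment over all genes tested. Second probes of a gene were tested in the same model fitted to 28572 probes, with adjustment over those probes. The labels number 4 samples in each group without saying that each came from a mouse of its own, so the p-values measure the spread between these samples, which may be technical. In a whole muscle, fewer cells of a type and less RNA per cell cannot be told apart.

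**Figure D1:**
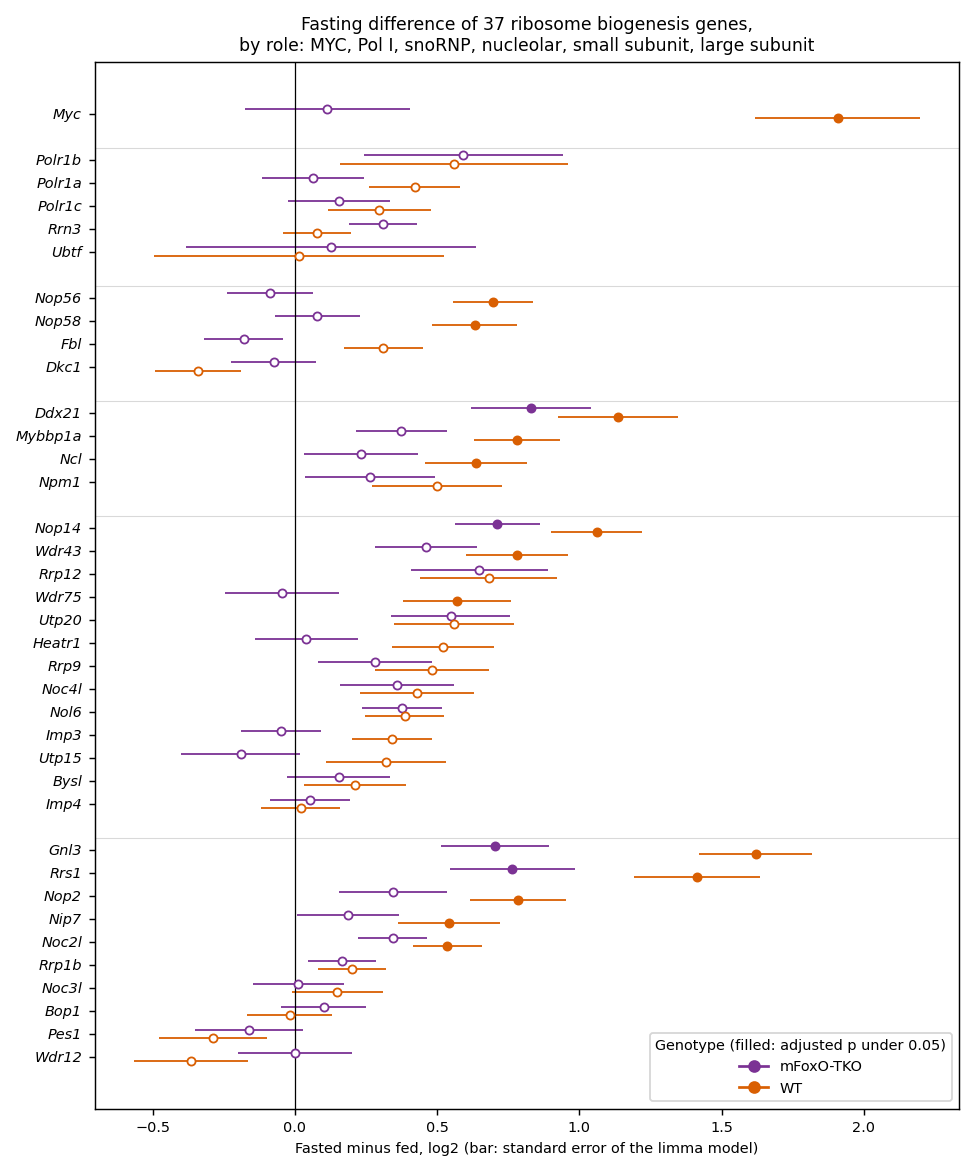
Difference between fasted and fed muscle (log2, horizontal axis) of the 37 tested members, grouped by role from MYC at the top to large-subunit factors at the bottom, in mFoxO-TKO (purple, upper point of each pair) and WT mice (orange, lower point). Bars are standard errors of the limma model, and filled points passed the test: 4 in mFoxO-TKO and 14 in WT mice.

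Myc showed the largest difference of the 37 members. Its level was 0.86, 0.87, 1.24 and 0.57 in fasted WT muscle, against -0.78, -1.15, -0.89 and -1.28 in fed WT muscle. The lowest fasted array, at 0.57, lay above the highest fed array, at -0.78, so the groups did not overlap. The difference was 1.91 ± 0.29 (adjusted p = 0.000255), a 3.75-fold higher signal. Within slide 1 it was 1.83 and within slide 2 it was 1.99. Myc was read by 1 probe spotted 2 times on each array, and the median SD of its spots within an array was 0.094.

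The RNA polymerase I machinery had 5 positive differences and 0 calls, with a median of 0.30. Polr1a encodes the largest subunit of the enzyme, and its level was 4.13, 3.78, 3.78 and 3.53 in fasted WT muscle, against 3.57, 3.49, 3.21 and 3.28 in fed WT muscle. The groups overlapped by a single pair of arrays, and the difference was 0.42 ± 0.16 (adjusted p = 0.0841). With slide as a block in the model it was 0.42 and passed (adjusted p = 0.0169). Polr1b encodes the other large subunit at the catalytic centre, and its level was 1.78, 1.69 and 1.60 in fasted WT muscle (replicate 1 left out), against 1.16, 1.16 and 1.08 in fed WT muscle (replicate 1 left out). Every fasted array lay above every fed array, but the test was missed (0.56 ± 0.40 (adjusted p = 0.388)). Its SE drew on 2 mFoxO-TKO arrays on which the surrounding spots were dim, and without such spots the same difference passed (adjusted p = 0.0234). Polr1c, a subunit shared with RNA polymerase III, was at 2.90, 2.86, 2.54 and 2.65 in fasted WT muscle, against 2.64, 2.48, 2.32 and 2.31 in fed WT muscle. The groups overlapped, with slide 1 above slide 2 in both. Its difference was 0.30 ± 0.18 (adjusted p = 0.293), and the probe was spotted 10 times on each array with a median spot SD of 0.0755. Rrn3, the factor that brings the polymerase to its promoter, was at 3.55, 3.41, 3.29 and 3.29 in fasted WT muscle, against 3.46, 3.39, 3.20 and 3.19 in fed WT muscle. These values overlapped, and the difference was 0.08 ± 0.12 (adjusted p = 0.736). Ubtf, which binds ribosomal DNA and opens it for transcription, was at 7.03, 6.56, 4.69 and 6.59 in fasted WT muscle, against 7.02, 6.59, 4.48 and 6.72 in fed WT muscle. Replicate 3 stood far below the other arrays in both groups, and the difference was 0.01 ± 0.51 (adjusted p = 0.99). Without spots in uneven patches it was -0.56 (adjusted p = 0.389), the other sign. That setting left out the low fed array, at 4.48, and kept the low fasted array, at 4.69. Within slide 1 the difference was -0.01 and within slide 2 it was 0.04. A second Ubtf probe gave 0.43 ± 0.20 (adjusted p = 0.15).

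Of the snoRNP core proteins, 2 of 4 were higher, with a median of 0.47. Nop56 and Nop58 are the paired scaffold proteins of the box C/D particles that guide ribosomal RNA methylation. Nop56 was at 4.16, 3.56, 4.02 and 3.71 in fasted WT muscle, against 3.27, 3.05, 3.14 and 3.20 in fed WT muscle. Nop58 was at 2.04, 1.87, 2.24 and 2.20 in fasted WT muscle, against 1.48, 1.52, 1.33 and 1.50 in fed WT muscle. Neither gene's groups overlapped, and the differences were 0.70 ± 0.14 (adjusted p = 0.00299) and 0.63 ± 0.15 (adjusted p = 0.00603). Fbl encodes fibrillarin, the methyltransferase of the same particles, and was at 2.50, 2.39, 2.30 and 2.18 in fasted WT muscle, against 2.05, 2.01, 2.05 and 2.01 in fed WT muscle. The fed WT values lay close together and below all fasted values, yet the difference of 0.31 ± 0.14 (adjusted p = 0.149) did not pass. Dkc1 encodes dyskerin, the pseudouridine synthase of the box H/ACA particles, and was at -0.16, -0.67, -0.31 and -0.28 in fasted WT muscle, against -0.09, 0.12, -0.01 and -0.08 in fed WT muscle. It was the member whose fasted arrays all lay below its fed arrays, with a difference of -0.34 ± 0.15 (adjusted p = 0.119) that did not pass. In 4 of the other settings it passed as lower, among them scaling to probes detected on all arrays (-0.47, adjusted p = 0.0225) and the authors' deposited value table (-0.46, adjusted p = 0.0221).

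Among the abundant nucleolar proteins, 3 of 4 were higher, and the median was 0.71. Ddx21, an RNA helicase that acts on ribosomal RNA transcription and processing, was at 2.74, 2.45, 2.21 and 2.62 in fasted WT muscle, against 1.46, 1.49, 1.33 and 1.19 in fed WT muscle. The lowest fasted array lay well above the highest fed array, and the difference was 1.14 ± 0.21 (adjusted p = 0.00102). Mybbp1a, a nucleolar Myb-binding protein, was at 5.94, 5.58, 5.61 and 5.52 in fasted WT muscle, against 5.03, 5.01, 4.71 and 4.78 in fed WT muscle, again with no overlap. Its difference was 0.78 ± 0.15 (adjusted p = 0.00163). Ncl encodes nucleolin, which binds nascent ribosomal RNA, and was at 5.76, 5.57, 4.89 and 5.23 in fasted WT muscle, against 4.81, 4.76, 4.64 and 4.69 in fed WT muscle. The groups did not overlap, although replicate 3 of the fasted mice came close to the fed arrays, and the difference was 0.64 ± 0.18 (adjusted p = 0.0222). Npm1 encodes nucleophosmin, an abundant nucleolar chaperone, and was at 6.09, 6.07, 5.45 and 5.69 in fasted WT muscle, against 5.61, 5.28, 5.27 and 5.13 in fed WT muscle. Its groups overlapped and its difference of 0.50 ± 0.23 (adjusted p = 0.14) did not pass, though with slide as a block it did (adjusted p = 0.021).

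Of the 13 small-subunit factors tested, 3 were higher, all 13 differences were positive, and the median was 0.48. They act in the small-subunit processome, the particle that forms on the nascent precursor RNA. Nop14, one of its core proteins, was at 2.03, 1.77 and 1.85 in fasted WT muscle (replicate 1 left out), against 0.91, 0.81, 0.88 and 0.68 in fed WT muscle, without overlap. Its difference was 1.06 ± 0.16 (adjusted p = 0.000354). Wdr43 and Wdr75 belong to the processome module that binds the precursor RNA first. Wdr43 was at 3.09, 2.93, 2.71 and 2.55 in fasted WT muscle, against 2.15, 2.14, 1.95 and 1.90 in fed WT muscle. Wdr75 was at 3.04, 2.58, 2.47 and 2.79 in fasted WT muscle, against 2.39, 2.03, 2.06 and 2.13 in fed WT muscle. Both were separated between fasted and fed mice, with differences of 0.78 ± 0.18 (adjusted p = 0.00644) and 0.57 ± 0.19 (adjusted p = 0.044). Rrp12, needed for the later maturation and export of the small-subunit precursor, was at 0.92, 1.15, 0.61 and 0.93 in fasted WT muscle, against 0.35, 0.07, 0.17 and 0.30 in fed WT muscle. It was separated too, but the test was missed at 0.68 ± 0.24 (adjusted p = 0.0575). Without spots in uneven patches the difference was 0.68 and passed (adjusted p = 0.00602). The other 9 tested, Utp20, Heatr1, Rrp9, Noc4l, Nol6, Imp3, Utp15, Bysl and Imp4, differed by between 0.02 (Imp4) and 0.56 (Utp20), none past the test. Heatr1 came nearest, at 0.52 ± 0.18 (adjusted p = 0.0535), with its groups separated.

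Of the 10 large-subunit factors, 5 were higher, 7 differences were positive and 3 negative, and the median was 0.37. Gnl3 encodes nucleostemin, a nucleolar GTPase, and was at 3.09, 2.66, 2.97 and 2.94 in fasted WT muscle, against 0.94, 1.48 and 1.46 in fed WT muscle (replicate 1 left out). No fasted array came within 1 unit of a fed array, and the difference was 1.62 ± 0.20 (adjusted p = 7.19e-05), a 3.07-fold higher signal. Rrs1, which helps bring the smallest ribosomal RNA into the large subunit, was at 3.39, 3.46, 3.18 and 3.36 in fasted WT muscle, against 2.18, 1.91, 1.86 and 1.77 in fed WT muscle. It was separated too, with a difference of 1.41 ± 0.22 (adjusted p = 0.000279). Nop2, a ribosomal RNA methyltransferase, was at 4.87, 4.63, 4.28 and 4.53 in fasted WT muscle, against 4.11, 3.74, 3.58 and 3.75 in fed WT muscle. The groups were separated and the difference was 0.78 ± 0.17 (adjusted p = 0.00514). Nip7, which is needed to process the large-subunit precursor RNA, was at 3.11, 3.45, 3.16 and 3.24 in fasted WT muscle, against 2.90, 2.63, 2.57 and 2.69 in fed WT muscle. The groups were separated and the difference was 0.54 ± 0.18 (adjusted p = 0.0483). Noc2l also passed, at 0.54 ± 0.12 (adjusted p = 0.0055). Pes1, Bop1 and Wdr12, the 3 subunits of the PeBoW complex of large-subunit assembly, did not: their differences were -0.29, -0.02 and -0.37. Noc3l and Rrp1b, at 0.15 and 0.20, did not pass either. By a second probe Pes1 passed as higher, at 0.70 (adjusted p = 0.00283), and Nip7 as lower, at -0.83 (adjusted p = 0.0153).

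**Figure D2:**
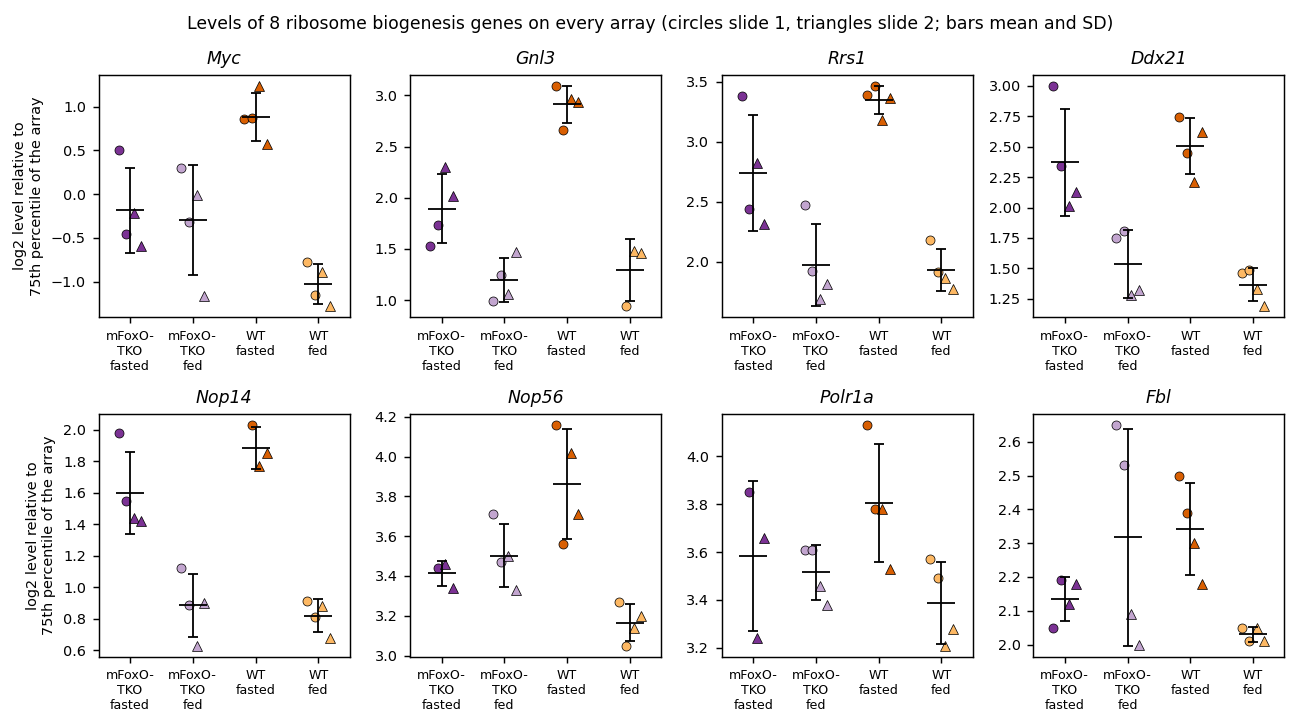
Level of 8 members on each of the 16 arrays (log2 relative to the 75th percentile of the array, vertical axis) by group, with circles for slide 1, triangles for slide 2 and bars for mean and SD. Myc, Gnl3, Rrs1, Ddx21 and Nop14 show fasted WT arrays above all fed WT arrays; Polr1a overlaps. Groups with 3 points had a spot left out.

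Slide 1 read higher than slide 2 for these genes in every group. The median deviation of the 37 members from their mean over arrays was 0.48 and 0.22 on the slide 1 arrays of fasted WT mice and 0.16 and 0.20 on their slide 2 arrays, and it was -0.04 and -0.19 against -0.30 and -0.24 in fed WT mice. The fasting difference nevertheless had the same sign on both slides for all 14 higher members, and its median was 0.49 within slide 1 and 0.41 within slide 2. With slide as a block, 23 members passed, 22 higher and 1 lower. Of all 21281 genes 3202 were higher and 2718 lower in that fit. All 14 members were among the 23, and the additional ones were Heatr1, Imp3, Nol6, Npm1, Polr1a, Rrp12, Rrp9 and Utp20, which were higher, and Wdr12, which was lower at -0.37 (adjusted p = 0.0388). Tested alone, slide 2 gave 17 calls among 37 members, and slide 1, with 2 arrays a group, gave 1 call (Myc) among 28. Over all genes, slide 2 gave 2467 higher and 2277 lower of 20995, and slide 1 gave 432 and 444 of 19591. When each array was left out in turn, 11 of the 14 calls were kept every time. Nip7 lost its call in 11 of 16 cases, with adjusted p up to 0.119. It was kept without replicate 1 of the fasted mFoxO-TKO, fed mFoxO-TKO or fed WT mice, replicate 3 of the fed mFoxO-TKO or replicate 4 of the fasted mFoxO-TKO mice. Wdr75 lost its call in 8 cases, with adjusted p up to 0.131. These were replicate 4 of the fasted and 2 of the fed mFoxO-TKO mice, replicates 1, 2 and 4 of the fasted WT and 2, 3 and 4 of the fed WT mice. Ncl lost its call in 4, without replicates 1 and 2 of the fasted or 3 and 4 of the fed WT mice (adjusted p up to 0.0729). Among the alternative settings that tested it, Wdr75 lost its call in 5 of 14 (adjusted p up to 0.584). Ncl lost it in 3 of 15 and Nip7 in 2 of 16, and each turned in sign in 1 more. Nop2 lost it in 1 of 14, with uneven spots kept (adjusted p = 0.213). Ddx21, Noc2l, Nop58, Rrs1 and Wdr43 lost theirs on slide 1 alone, and the remaining calls were kept in every setting.

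**Figure D3:**
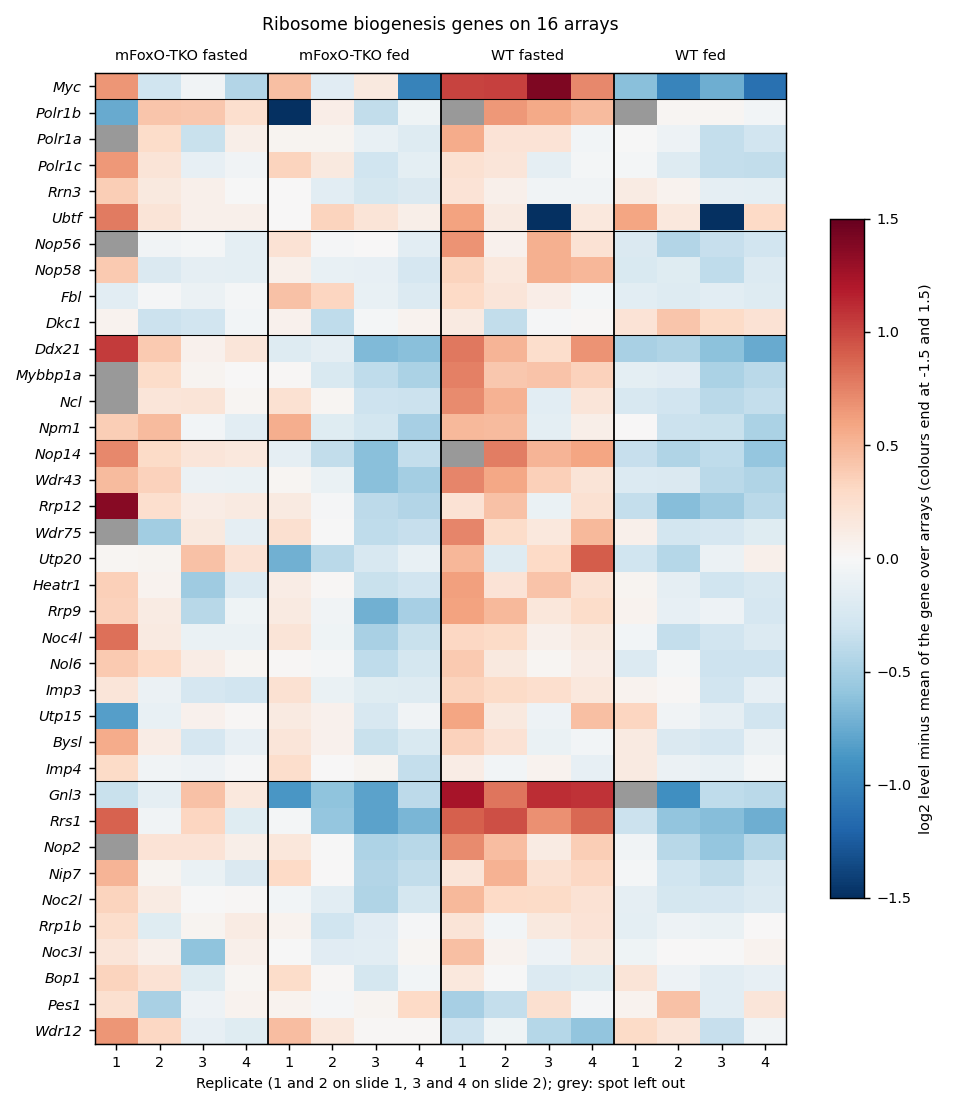
Deviation of each member from its mean over arrays (log2, colour scale) on the 16 arrays, with genes grouped by role down the page and arrays by group across it. Fasted WT arrays are mostly red and fed WT arrays mostly blue, replicate 1 columns are redder than the others of their group, and grey cells are spots left out.

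Markers of other cell types also differed between fasted and fed WT muscle. Of 7 fibroblast markers 4 were lower, with a median of -0.68, and their summed level on an array (log2) ran from 8.22 to 8.80 in fasted and from 8.47 to 9.08 in fed WT mice. Of 5 dividing-cell markers that passed the filter none was called, their median was -0.54, and their summed level ran from -1.75 to -0.26 in fasted and from -0.64 to 0.56 in fed WT mice. Top2a and Aurkb, of the same list, did not pass the filter. The 10 muscle fibre markers had a median of 0.07 and no call. The part of these cells in the ribosome biogenesis differences was not tested.

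Members with more than 1 probe gave a check on single probes. There were 8, and the brightest probe stands for the gene. In fasted against fed WT muscle, the second probes of Nop56 and Wdr43 also passed, at 0.62 ± 0.16 (adjusted p = 0.0101) and 1.16 ± 0.15 (adjusted p = 7.68e-05). The 4 other Npm1 probes gave 0.38 to 0.68, near the 0.50 of the brightest. The second probe of Ddx21 gave 0.65 with an SE of 0.68. For 3 genes the probes disagreed. Nip7 was at 0.54 by its brightest probe and at -0.83 ± 0.23 by the other, which passed as lower (adjusted p = 0.0153). Ncl was at 0.64 by one and -0.06 ± 0.14 by the other. Pes1 was at -0.29 by its brightest probe and at 0.70 ± 0.15 by the other, which passed as higher (adjusted p = 0.00283). The calls of Nip7 and Ncl therefore hold for 1 of their 2 probes.

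**Figure D4:**
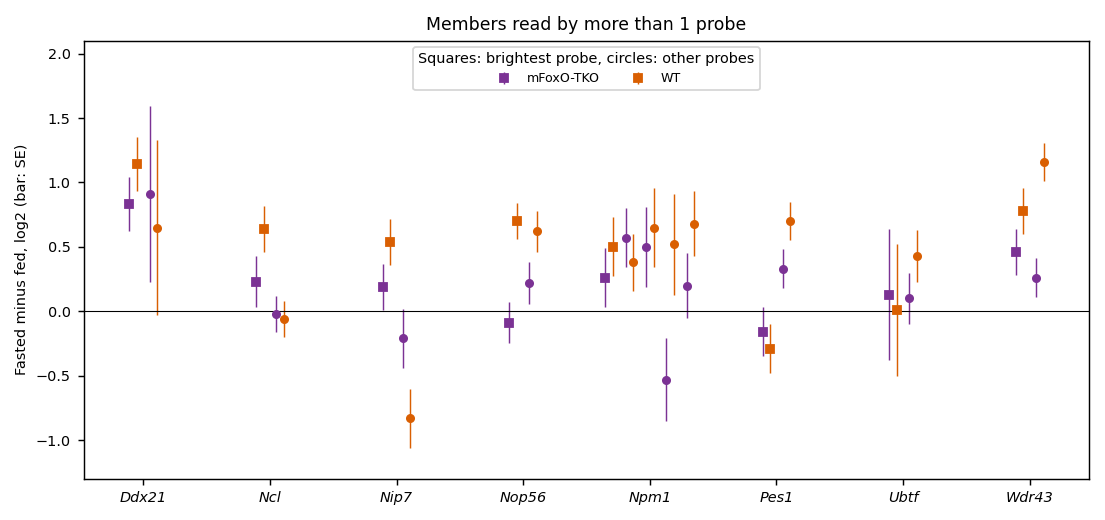
Difference between fasted and fed muscle (log2, vertical axis, with SE bars) for every probe of the 8 members read by more than 1 probe, in mFoxO-TKO (purple, left of each pair) and WT mice (orange). Squares are the probes that stand for the gene; Nip7 and Pes1 have probes on opposite sides of 0 in WT mice.

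In mFoxO-TKO muscle, fasting raised 4 of the 37 members: Ddx21, Rrs1, Nop14 and Gnl3. None was lower past the test. Of all genes 4.29% were higher and 4.23% lower. The median difference of the members was 0.17, against 0.04 for all genes, and 30 were positive, against 55.3% of all genes. Without replicate 1 of the fasted mFoxO-TKO mice the median was 0.06, without replicate 4 of the fed mice 0.11, and without replicate 1 of the fed mice 0.26. Every fasted array lay above every fed array for 6 members (7.75% of all genes) and below for 0 (6.01%). All 4 had also risen in fasted WT muscle.

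Myc was at 0.51, -0.45, -0.21 and -0.59 in fasted mFoxO-TKO muscle, against 0.30, -0.32, -0.01 and -1.16 in fed mFoxO-TKO muscle. The groups overlapped throughout, with replicate 1 the highest of each, and the difference was 0.11 ± 0.29 (adjusted p = 0.867). Within the slides it was 0.04 and 0.19. Ddx21 was at 3.00, 2.34, 2.01 and 2.13 in fasted mFoxO-TKO muscle, against 1.75, 1.81, 1.28 and 1.32 in fed mFoxO-TKO muscle. Its fasted arrays lay above its fed arrays, and the difference was 0.83 ± 0.21 (adjusted p = 0.0198). Rrs1 was at 3.38, 2.44, 2.82 and 2.31 in fasted mFoxO-TKO muscle, against 2.47, 1.92, 1.69 and 1.81 in fed mFoxO-TKO muscle. Replicate 1 was the highest of each group, that of the fed mice lay above 2 fasted arrays, and the difference was 0.76 ± 0.22 (adjusted p = 0.0392). Nop14 was at 1.98, 1.55, 1.44 and 1.42 in fasted mFoxO-TKO muscle, against 1.12, 0.89, 0.63 and 0.90 in fed mFoxO-TKO muscle, without overlap. Its difference was 0.71 ± 0.15 (adjusted p = 0.00936). Gnl3 was at 1.53, 1.73, 2.30 and 2.02 in fasted mFoxO-TKO muscle, against 0.99, 1.25, 1.06 and 1.47 in fed mFoxO-TKO muscle, also without overlap. Its difference was 0.71 ± 0.19 (adjusted p = 0.0323). Nop14 kept its call whichever array was left out. Ddx21 lost it without replicate 3 or 4 of the fed mice (adjusted p up to 0.0664). Gnl3 lost it without replicate 3 or 4 of the fasted or 1, 2 or 3 of the fed mice (adjusted p up to 0.102). Rrs1 lost it in 8 of 16 cases, without replicate 1 or 3 of the fasted mFoxO-TKO mice or replicate 2, 3 or 4 of either fed group (adjusted p up to 0.117). Among the alternative settings that tested it, Gnl3 lost its call in 5 of 14 (adjusted p up to 0.744). Ddx21 and Rrs1 lost theirs in 4 of 16 each (adjusted p up to 0.194 and 0.393). Nop14 lost its call in 1 of 14, the fit on the 2 groups alone (adjusted p = 0.0614).

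Of the remaining members named above, none passed in mFoxO-TKO muscle. In the nucleolar group, Mybbp1a was at 5.45, 5.22 and 5.19 in fasted mFoxO-TKO muscle (replicate 1 left out), against 5.20, 4.95, 4.80 and 4.70 in fed mFoxO-TKO muscle. Ncl was at 5.23, 5.24 and 5.07 in fasted mFoxO-TKO muscle (replicate 1 left out), against 5.28, 5.07, 4.73 and 4.72 in fed mFoxO-TKO muscle. Npm1 was at 5.97, 6.07, 5.56 and 5.44 in fasted mFoxO-TKO muscle, against 6.15, 5.42, 5.32 and 5.10 in fed mFoxO-TKO muscle. These 3 overlapped between fasted and fed mice, with differences of 0.37, 0.23 and 0.26. The snoRNP proteins overlapped too. Nop56 was at 3.44, 3.46 and 3.34 in fasted mFoxO-TKO muscle (replicate 1 left out), against 3.71, 3.47, 3.50 and 3.33 in fed mFoxO-TKO muscle. Nop58 was at 2.10, 1.49, 1.57 and 1.56 in fasted mFoxO-TKO muscle, against 1.78, 1.59, 1.58 and 1.45 in fed mFoxO-TKO muscle. Their differences were -0.09 and 0.08, close to 0 in both cases. The second Nop56 probe gave 0.22 ± 0.16 (adjusted p = 0.471). Fbl was at 2.05, 2.19, 2.12 and 2.18 in fasted mFoxO-TKO muscle, against 2.65, 2.53, 2.09 and 2.0 in fed mFoxO-TKO muscle. Dkc1 was at -0.25, -0.62, -0.58 and -0.34 in fasted mFoxO-TKO muscle, against -0.23, -0.68, -0.33 and -0.25 in fed mFoxO-TKO muscle. Fbl was high on the 2 slide 1 arrays of the fed mice, and the differences were -0.18 for Fbl and -0.08 for Dkc1.

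Of the small-subunit factors, Wdr43 was at 2.83, 2.70, 2.27 and 2.25 in fasted mFoxO-TKO muscle, against 2.38, 2.25, 1.73 and 1.84 in fed mFoxO-TKO muscle. Wdr75 was at 1.79, 2.45 and 2.17 in fasted mFoxO-TKO muscle (replicate 1 left out), against 2.55, 2.30, 1.93 and 1.96 in fed mFoxO-TKO muscle. Rrp12 was at 2.07, 0.96, 0.82 and 0.84 in fasted mFoxO-TKO muscle, against 0.84, 0.69, 0.31 and 0.27 in fed mFoxO-TKO muscle. Each overlapped, and Rrp12 was far higher on replicate 1 of the fasted mice than on any other array. The differences were 0.46, -0.05 and 0.65, and that of Rrp12 was 0.35 without spots in uneven patches (adjusted p = 0.243). Nop2, of the large-subunit factors, was at 4.37, 4.37 and 4.25 in fasted mFoxO-TKO muscle (replicate 1 left out), against 4.33, 4.16, 3.70 and 3.75 in fed mFoxO-TKO muscle. Nip7 was at 3.44, 2.98, 2.83 and 2.72 in fasted mFoxO-TKO muscle, against 3.23, 2.94, 2.49 and 2.56 in fed mFoxO-TKO muscle. Both overlapped, with differences of 0.35 and 0.19. Outside these, Noc2l, Nol6 and Utp20 had fasted arrays above all fed arrays without passing, at 0.34, 0.38 and 0.55.

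The RNA polymerase I machinery again had 5 positive differences and 0 calls, with a median of 0.15. Polr1a was at 3.85, 3.24 and 3.66 in fasted mFoxO-TKO muscle (replicate 1 left out), against 3.61, 3.61, 3.46 and 3.38 in fed mFoxO-TKO muscle. Polr1b was at 0.37, 1.54, 1.53 and 1.38 in fasted mFoxO-TKO muscle, against -0.58, 1.22, 0.76 and 1.06 in fed mFoxO-TKO muscle. Both overlapped, and Polr1b was low on replicate 1 of both groups, where the spots around it were dim as well. Polr1c was at 3.32, 2.87, 2.55 and 2.62 in fasted mFoxO-TKO muscle, against 3.01, 2.82, 2.37 and 2.53 in fed mFoxO-TKO muscle. Rrn3 was at 3.71, 3.49, 3.41 and 3.33 in fasted mFoxO-TKO muscle, against 3.34, 3.18, 3.07 and 3.12 in fed mFoxO-TKO muscle. Ubtf was at 7.21, 6.62, 6.50 and 6.50 in fasted mFoxO-TKO muscle, against 6.43, 6.76, 6.62 and 6.51 in fed mFoxO-TKO muscle. All 3 overlapped, and the 5 differences ran from 0.06 (Polr1a) to 0.59 (Polr1b).

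With slide as a block, 10 members were higher in fasted mFoxO-TKO muscle, the additional ones being Mybbp1a, Noc2l, Nol6, Rrn3, Utp20 and Wdr43. Of all 21281 genes 1468 were higher and 1332 lower in that fit. The median difference of the members was 0.20 within slide 1 and 0.24 within slide 2. Alone, slide 1 gave 0 calls among members and slide 2 gave 5. Slide 2 alone gave 751 higher and 874 lower of 20995 genes. Dividing-cell markers had a median difference of -1.98 here, none of 5 past the test, with a summed level on an array from -1.17 to 2.02 in fasted and from 0.23 to 3.16 in fed mFoxO-TKO mice. Of 7 fibroblast markers 2 were lower (median -0.57), of 7 macrophage markers 1 was higher and 1 lower (median -0.84), and of 5 fat cell markers 1 was higher. The part of these cells in the values was not tested.

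The comparison of the genotypes within a feeding state asks which levels depend on the 3 deleted genes. In fasted mice, 2 of 37 members were lower in mFoxO-TKO than in WT muscle, Myc and Gnl3, against 4.97% of all genes. The share of lower members thus stood near that of all genes, and 0 members were higher, against 4.39% of all genes. The median difference of the members was -0.21, against 0.04 for all genes, with 28 negative, against 45.4% of all genes. The Myc levels of fasted mice given above did not overlap between genotypes, and the difference was -1.07 ± 0.29 (adjusted p = 0.0281). For Gnl3 it was -1.02 ± 0.19 (adjusted p = 0.00285), again without overlap. Members whose mFoxO-TKO arrays all lay below the WT arrays numbered 6, against 6.65% of all genes: these 2 and Polr1b, Mybbp1a, Wdr75 and Nop56. The last 4 did not pass the test, with differences of -0.49, -0.38, -0.58 and -0.45. Each of these 4 lacked an array here, which makes separation easier. Mybbp1a, Wdr75 and Nop56 had no value on replicate 1 of the fasted mFoxO-TKO mice. On that array the median deviation of the members was 0.37, the highest of its group. Polr1b had no value on replicate 1 of the fasted WT mice. Only Myc and Gnl3 were separated with every array present. Among second probes, that of Wdr43 passed as lower at -0.72 ± 0.15 (adjusted p = 0.00683) and that of Nip7 as higher at 0.80 ± 0.23 (adjusted p = 0.0354), where their brightest probes gave -0.31 and -0.25 and did not pass.

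Gnl3 kept this call whichever array was left out. The call of Myc was lost in 6 of 16 cases, without replicate 1, 2 or 3 of the fasted WT or replicate 2, 3 or 4 of the fasted mFoxO-TKO mice, with adjusted p up to 0.0886. Among the alternative settings, Myc lost it in 4 of 16 (adjusted p up to 0.314). These were each slide alone, no filter on dim probes and the fit on the 2 groups alone. The Gnl3 spot of replicate 1 of the fasted mFoxO-TKO mice lay in a dim patch, with bright spots around it 0.84 below the median of their group, and without such spots the difference was -0.90 (adjusted p = 0.00893). With slide as a block, 7 members differed, of which 6 were lower (Gnl3, Heatr1, Imp3, Myc, Rrs1 and Wdr43) and Wdr12 was higher. Of all 21281 genes 1547 were lower and 1479 higher in that fit, also more than in the main fit. Within slides the median of the members was -0.13 on slide 1 and -0.21 on slide 2, with 0 and 4 calls. Slide 2 alone gave 725 higher and 1131 lower of 20995 genes. Myc differed by -0.83 within slide 1 and by -1.30 within slide 2.

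In fed mice, 0 of 37 members differed between mFoxO-TKO and WT muscle past the limma test, against 0.507% of all genes higher and 0.512% lower. At an unadjusted p under 0.05 there were 3 (Myc, Dkc1 and Nop56), against 9.51% of all genes. None of the 16 alternative settings or the 16 fits without an array gave a call. The median difference was 0.04 (0.01 for all genes), and it was 0.11 within slide 1 and -0.02 within slide 2. The largest difference was that of Myc, 0.73 ± 0.29 (adjusted p = 0.373), and the levels given above show 3 fed mFoxO-TKO arrays above all 4 fed WT arrays and replicate 4 among them. Nop56 was 0.34 ± 0.14, with the groups separated, and Dkc1 was -0.36 ± 0.15, separated the other way (5.47% and 3.68% of all genes were so separated). The second Nop56 probe gave 0.13 ± 0.16 (adjusted p = 0.972). Dividing-cell markers had a median of 1.86 in this comparison, with none of 5 past the test, and their part in the Myc value was not tested.

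The test of whether fasting acted differently in the genotypes is the interaction, the fasting difference in mFoxO-TKO minus that in WT mice. Of the 37 members 1 passed, Myc at -1.79 ± 0.41 (adjusted p = 0.047), against 0.724% of all genes with a lower and 0.423% with a higher interaction. For the other 36, a difference in response between genotypes was not shown, including the 10 members that passed in WT and not in mFoxO-TKO mice. The median interaction was -0.24 (-0.15 without replicate 1 of the fasted WT and -0.36 without replicate 3 of the fasted WT mice), against 0.02 for all genes, and 29 of 37 members had a larger fasting difference in WT mice, against 48.1% of all genes. Next to Myc came Gnl3 (-0.91 ± 0.28, adjusted p = 0.161) and Nop56 (-0.78 ± 0.21, adjusted p = 0.106). The Nop56 value had no replicate 1 of the fasted mFoxO-TKO mice, and its second probe gave -0.40 ± 0.22 (adjusted p = 0.581). The second probe of Wdr43 gave -0.90 ± 0.22 (adjusted p = 0.0591), where its brightest gave -0.32. The Myc interaction was -1.79 within slide 1 and -1.80 within slide 2, and -1.79 with slide as a block (adjusted p = 0.0303). It stood close to the threshold. When each array was left out in turn its adjusted p ran from 0.0102 to 0.119 and was under 0.05 in 2 of 16 cases, without replicate 1 of the fasted or replicate 4 of the fed mFoxO-TKO mice. Its value ran from -2.08 to -1.59 in those fits. With slide as a block, 2 members passed, Myc and Gnl3 at -0.96 (adjusted p = 0.0414). Of all 21281 genes 212 had a higher and 352 a lower interaction in that fit.

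Ordered by their means in the 4 groups, 27 of 37 members were highest in fasted WT muscle, against 32.1% of all genes. Fasted mFoxO-TKO muscle was highest for 8 (25.8% of all genes), fed mFoxO-TKO muscle for 0 (24.5%) and fed WT muscle for 2 (17.6%). Fed WT muscle had the lowest mean for 22 members, against 23.7% of all genes. Myc averaged -0.18 ± 0.49 in fasted mFoxO-TKO, -0.30 ± 0.63 in fed mFoxO-TKO, 0.88 ± 0.28 in fasted WT and -1.02 ± 0.23 in fed WT mice (SD, n = 4 each). The 2 mFoxO-TKO means lay between the 2 WT means and within their own spread of each other. Rrs1 had the same order of means with other gaps, at 2.74 ± 0.48 in fasted mFoxO-TKO, 1.97 ± 0.34 in fed mFoxO-TKO, 3.35 ± 0.12 in fasted WT and 1.93 ± 0.17 in fed WT mice (SD, n = 4 each). Its 2 fed means did not differ beyond their spread.

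The wider pathway was read from lists of 184 further genes, of which 174 were tested. In fasted against fed WT muscle 60 were higher and 5 lower, against 11.2% and 9.57% of all genes, with a median of 0.36. The list of 54 other large-subunit factors had 28 higher and 0 lower. Its leading genes were Sbds at 1.61 ± 0.16 (adjusted p = 5.94e-06), which takes part in releasing an anti-association factor from new large subunits, and the helicase Ddx56 at 1.29 ± 0.14. Of 45 other small-subunit factors tested 15 were higher and 0 lower, led by Utp11 at 1.28, Tsr1 at 1.14, the kinase Riok2 at 0.98 and Nob1, the nuclease that makes the mature end of the small-subunit RNA, at 0.97. Of 24 other snoRNP and nucleolar genes 6 were higher and 0 lower, with Nolc1 at 0.94, Tcof1 (treacle, a cofactor of RNA polymerase I) at 0.90 and the box H/ACA protein Gar1 at 0.72.

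Of 14 other RNA polymerase I genes 1 was higher, Taf1d, a subunit of the promoter selectivity factor, at 1.81 ± 0.15 (adjusted p = 1.38e-06). Of 22 RNA polymerase III genes, whose enzyme makes transfer RNA and the smallest ribosomal RNA, 4 were higher and 2 lower. The higher ones included Gtf3c4 at 1.19 and Gtf3c3 at 0.97, of the factor that binds the promoters of transfer RNA genes, and Polr3d at 0.65, and Polr3g was lower at -1.44. Of 15 genes of the MYC network 6 were higher and 3 lower. Mycn, the paralog of Myc, was lower at -1.79 ± 0.23 (adjusted p = 6.31e-05), and Fbxw7, which targets MYC protein for degradation, at -1.09 ± 0.21. Mnt and Mxd4, which bind MAX in place of MYC and repress, were higher at 1.02 and 0.98.

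In fasted against fed mFoxO-TKO muscle the same lists had 10 of 174 genes higher and 3 lower, with a median of 0.16. Of all genes 4.29% were higher, so the share of higher list genes stood near that of all genes, and 4.23% were lower. Without replicate 3 of the fasted or replicate 2 of the fed mFoxO-TKO mice 7 of the 174 were called. Large-subunit factors gave 5 of the higher genes, led by Ddx56 at 0.87 ± 0.14 and Gnl2 at 0.66 ± 0.14. Small-subunit factors gave 3, Tsr1 at 0.78, Utp14a at 0.73 and Utp11 at 0.72. Taf1d was higher at 0.50 ± 0.15 (adjusted p = 0.0491), and Usp28, a deubiquitinase of MYC, at 0.68. Mycn, Fbxw7 and Polr3g were lower, at -1.11, -0.77 and -0.94. In fasted mice 17 list genes were lower in mFoxO-TKO than in WT muscle and 1 was higher (Nufip1 at 0.79 ± 0.16, named after its value was seen), and in fed mice 0 of 174 differed. Of all genes 4.97% were lower and 4.39% higher in the fasted comparison, and its 18 calls became 35 without replicate 1 of the fasted mFoxO-TKO mice, 11, 10 and 8 without replicates 2, 3 and 4 of that group, and 10 without replicate 1 of the fasted WT mice. The interaction passed for 2 of 174, Taf1d at -1.31 ± 0.21 (adjusted p = 0.00571) and Sbds at -1.08 ± 0.22 (adjusted p = 0.0253). Of all genes 0.724% had a lower and 0.423% a higher interaction, so this count stood near the share of all genes.

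**Figure D5:**
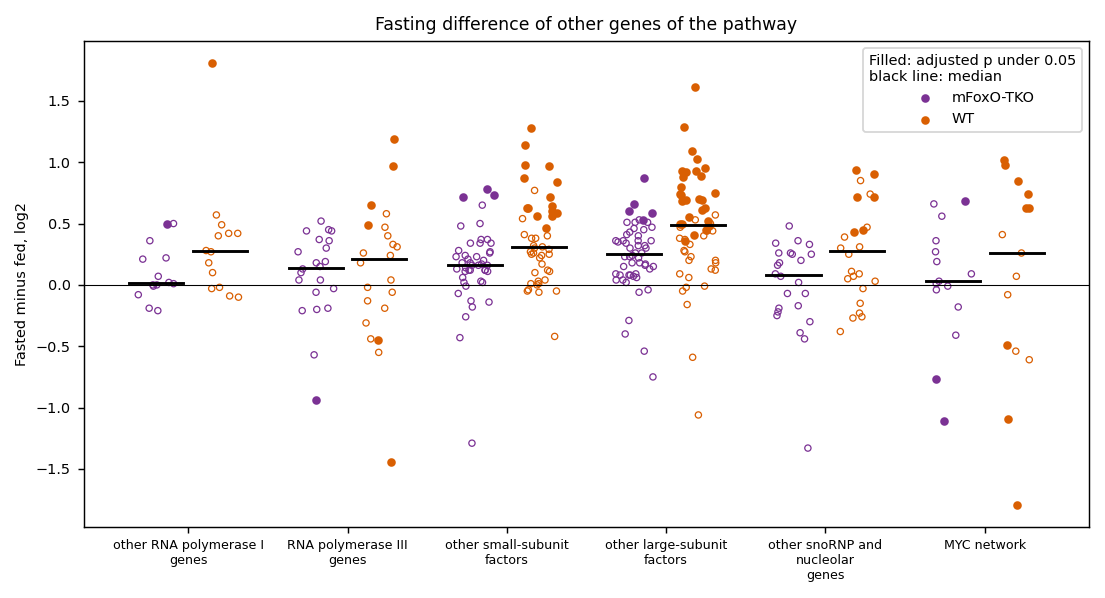
Difference between fasted and fed muscle (log2, vertical axis) for 174 further genes of the pathway in 6 lists, in mFoxO-TKO (purple, left) and WT mice (orange, right). Filled points passed the test (10 higher and 3 lower in mFoxO-TKO, 60 higher and 5 lower in WT mice), and black lines are medians, 0.25 and 0.49 for the large-subunit factors.

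Promoters of members were searched for the E-box CACGTG, the sequence that MYC and its partner MAX are known to bind, on both strands and in the window from 250 bases before to 50 bases after the start (RefSeq, GRCm38.p6). A window was found for 31 of 38 members. It held an E-box in 8 of the 31 (25.8%), against 11.4% of 11240 tested genes with a window and 8.09% of 27025 genes in all. Of 150 genes of the wider pathway lists with a window, 32 (21.3%) held one. Among the members that were higher in fasted WT muscle 3 of 12 had one, and among the others 5 of 19. The 8 were Rrn3, Mybbp1a, Nop2, Pes1, Imp4, Utp18, Utp20 and Wdr43. A match in these letters is a description and not a binding site. The forkhead sequence GTAAACA, of the kind that FoxO proteins bind, was in 1 of the 31 windows (Rrp1b, 3.23%), against 3.18% of tested genes. The 250 bases before the start are shown for 3 genes with an E-box there and different fasting values in WT muscle (Nop2, higher; Rrn3 and Imp4, not passed), and for Gnl3, higher with no E-box in its window. E-boxes are in capitals, and each runs 5′ to 3′ on the strand of its gene.
Nop2, chr6:125131633-125131882, plus strand, E-box starting 60 bases before the start: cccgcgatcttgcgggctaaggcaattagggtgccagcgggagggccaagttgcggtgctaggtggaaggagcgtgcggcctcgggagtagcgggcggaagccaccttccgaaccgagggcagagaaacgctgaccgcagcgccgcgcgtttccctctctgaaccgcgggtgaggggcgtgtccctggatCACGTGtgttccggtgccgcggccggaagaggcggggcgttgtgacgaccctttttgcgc
Rrn3, chr16:13780449-13780698, plus strand, E-boxes starting 215 and 48 bases before the start: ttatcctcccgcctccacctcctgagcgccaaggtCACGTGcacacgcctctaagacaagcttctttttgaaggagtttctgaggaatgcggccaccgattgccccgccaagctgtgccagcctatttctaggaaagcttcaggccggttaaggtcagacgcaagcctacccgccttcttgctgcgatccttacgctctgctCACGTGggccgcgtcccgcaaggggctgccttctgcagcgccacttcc
Imp4, chr1:34439579-34439828, plus strand, E-box starting 121 bases before the start: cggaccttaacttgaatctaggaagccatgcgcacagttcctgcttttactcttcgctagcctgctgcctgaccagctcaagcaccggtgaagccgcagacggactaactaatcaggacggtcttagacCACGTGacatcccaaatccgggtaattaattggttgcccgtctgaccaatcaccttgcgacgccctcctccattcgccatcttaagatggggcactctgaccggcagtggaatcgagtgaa
Gnl3, chr14:31019132-31019381, minus strand, no E-box: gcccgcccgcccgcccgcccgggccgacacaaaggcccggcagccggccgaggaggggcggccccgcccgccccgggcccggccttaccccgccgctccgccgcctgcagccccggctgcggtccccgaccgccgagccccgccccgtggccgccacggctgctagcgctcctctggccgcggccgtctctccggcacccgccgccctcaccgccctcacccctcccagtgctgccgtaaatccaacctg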

How the data were processed

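Total RNA of 16 quadriceps samples was labelled with Cy3 and hybridised to 1-colour Agilent mouse arrays, 1 per sample, per the labels. Spots were quantified with Agilent Feature Extraction, version 11.0.1.1 per the file headers and 9.5 per the submitters' processing notes. The deposited processed signals are intensities with background subtraction and spatial detrending, and no scaling between arrays, per the file headers. The deposited value table holds whole-number scores, each the authors' processed signal scaled to a 75th percentile of 100 on each array, with no logarithm or centring, as found by setting it against the scanner files (column medians 22 to 25). It held 30 members and served as an alternative, as log2 of the score plus 1. How mice were assigned to slides is not given in the sources used here.

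Members were matched to probes through the RefSeq accession of each probe, and 28331 of 55681 probes had a symbol. Uneven spots were left out (6 member spots on replicate 1 of the fasted mFoxO-TKO mice, 2 on replicate 1 of the fasted WT and 2 on that of the fed WT mice), so those means and fits rest on 3 arrays. Probes entered the fit if all arrays of 1 or more groups showed them well above background, and the brightest kept probe stands for its gene. Signals were taken as log2 minus the 75th percentile of the array. A limma model (version 3.58.1, R 4.3.3, empirical Bayes, 12 residual degrees of freedom) with 4 group means was fitted over 21281 genes, with Benjamini-Hochberg adjustment and a threshold of 0.05. The same code was tested on simulated data. The scanner files used here give no mean spot signal, so the normexp alternative (offset 50) used the deposited median spot and background intensities. The number of arrays limits the precision.

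The members, the role groups, the pathway lists and the cell type markers were chosen with earlier results of these data known. Values on every array are given for Myc, the 5 RNA polymerase I members and, in each other role group, the 4 members with the largest change in WT fasting. From each pathway list up to 4 passing genes per fasting comparison may be named. Alternatives were slide or replicate number as a block, each slide alone, other backgrounds, scalings and filters, the median over probes, the 2 groups alone and each array left out. Leaving out spots in uneven patches, and replicate 1 of every group, were chosen after the data were seen.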

Additional observations from a re-analysis of the deposited data

Results flagged for a closer look

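Among 138 groups of 4 arrays with a value for a member, 6 held an array whose gap to the next one was large for the range of the group, where chance marks about 1 in 20 groups. On replicate 1 of the fasted mFoxO-TKO mice, Polr1b was the lowest of its group at 0.37, and Nop58, Rrp12 and Imp4 were the highest of theirs at 2.10, 2.07 and 1.61. The bright spots around Polr1b on that array lay 1.52 below the median of their group and those around Rrp12 lay 0.61 above it. Ubtf was the lowest on replicate 3 of the fed WT mice at 4.48, with the spots around it 0.66 below their group. Noc3l was the lowest on replicate 3 of the fasted mFoxO-TKO mice at 0.43.

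The fasting difference of Myc was marked because it differed between the genotypes by the interaction test, at -1.79 in mFoxO-TKO against WT mice (adjusted p = 0.047, limma), with the limits given with it above.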

How the results depend on the processing

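Counts of members called are given below in the order fasting in WT, fasting in mFoxO-TKO, mFoxO-TKO against WT in fasted mice and interaction, beside 14, 4, 2 and 1; with the genotypes compared in fed mice the count was 0 in every fit run. Calls of both directions are summed. The WT counts include 1 lower member with slide as a block (Wdr12) and 1 with uneven spots kept (Dkc1), and both of these as lower with the replicate block, the percentile over detected probes and the value table. With slide as a block they were 23, 10, 7 and 2. Slide 1 alone gave 1, 0, 0 and 0 of 28 members, where fewer arrays and members were tested, and slide 2 alone 17, 5, 4 and 0. The replicate numbers shared by the groups are not stated to mark shared litters or days, and deviations of same-numbered arrays correlated by 0.06 to 0.39, so they were not taken as pairs. A fit with the replicate block gave 27, 13, 8 and 2, with Polr1a, Polr1b and Polr1c passing as higher in WT fasting (adjusted p = 0.0262, 0.0446 and 0.0314), and 11 of 16 arrays correlated best with an array of their own number. With that block 3521 of all 21281 genes were higher and 2827 lower in WT fasting, and 1790 and 1393 in mFoxO-TKO fasting. For the genotypes in fasted mice the counts were 1648 and 1729, and for the interaction 242 and 455.

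Normexp background gave 15, 3, 4 and 0, quantile scaling 15, 8, 3 and 0, and a 75th percentile over probes detected on all arrays 18, 9, 5 and 1. With no filter the counts were 11, 1, 1 and 0, with uneven spots kept 16, 4, 7 and 2, and with the median over probes 12, 3, 4 and 1. Fits on the 2 groups alone gave 19, 0 and 1. The authors' value table gave 16, 7, 6 and 1 of 30 members, with a median WT fasting difference of 0.23 in place of 0.50. Without replicate 1 of every group there were 19, 6, 5 and 1. With single arrays left out the counts ran from 11 to 18, 1 to 4, 1 to 6 and 0 to 2. Calls over all genes moved between settings as well, so a change in a member count need not be particular to the members. The causes were not tested.

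Among called results, those turned in sign were Nip7 in WT fasting, at -0.15 by the median over probes (adjusted p = 0.678), and Ncl, at -0.19 in the value table (adjusted p = 0.398). The Myc interaction lost its call on either slide alone, with normexp, with quantile scaling and with no filter (adjusted p 0.00569 to 0.49 over 15 settings). Of all genes called in WT fasting 54% were higher, against 37.1% with the percentile over detected probes and 40.5% in the value table. With the percentile over detected probes the share was 62.5% in place of 46.9% for the genotypes in fasted mice, and for the interaction it was 51.5%, and 48.4% in the value table, in place of 36.9%; normexp gave 63.9% in place of 50.4% in mFoxO-TKO fasting. The percentile over detected probes moved the median of all genes in WT fasting to -0.11, and no filter moved it to 0.23, beside 0.02; these are log2 shifts against which differences under those settings are to be read. Dim probes limit what can be read of Utp18 and Utp15.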

Other observations

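Lists of markers for other cells of the muscle were read in the same fits. In fasted against fed WT mice, satellite cell markers had 1 of 4 lower (median -0.67), macrophage markers 1 higher and 1 lower of 7 (median -0.62), endothelial markers 1 of 6 lower (median -0.09) and fat cell markers 1 of 5 higher (median -0.06). Neutrophil (median 0.63), T and B cell (-0.44), pericyte and smooth muscle (-0.31) and Schwann cell markers (-0.22) had no call. In fasted mFoxO-TKO against fasted WT mice, 1 of 7 macrophage markers was higher and no other marker list had a call. The dividing-cell list had a median of 0.66 there, with 0 of 5 past the test.

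The 17 pathway genes that were lower in fasted mFoxO-TKO than in fasted WT muscle comprised 7 of 54 large-subunit factors, 4 of 45 small-subunit factors, 1 of 24 snoRNP and nucleolar genes, 1 of 14 RNA polymerase I genes, 1 of 22 RNA polymerase III genes and 3 of 15 MYC network genes. Their list medians ran from -0.21 for the large-subunit factors to 0.02 for the RNA polymerase III genes, against 0.04 for all genes tested.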
